A study of Mus musculus with 80 samples.

Results

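The genes described here are 10 genes of the antioxidant response that is run by the transcription factor NRF2, and of glutathione synthesis, in the liver of fed and fasted mice. They were taken by symbol from the rows of the gene count table, by a rule that names the symbols and no values, and the set was drawn up with earlier results of these data known: Nfe2l2, Keap1, Nqo1, Srxn1, Txnrd1, Gsr, Gclc, Gclm, Gss and G6pdx. The table lists 78275 genes, of which 21187 passed the filter on low counts and were tested. All 10 genes passed it.

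NRF2, encoded by Nfe2l2, is held at a low level because KEAP1 hands it to a ubiquitin ligase for destruction. Oxidants and electrophiles modify cysteines of KEAP1, NRF2 then accumulates, pairs with a small Maf protein and binds antioxidant response elements in its target genes. These targets make glutathione, the main thiol antioxidant of hepatocytes, from glutamate, cysteine and glycine, and they keep glutathione, thioredoxin and peroxiredoxins reduced at the expense of NADPH.

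Livers came from C57BL/6J mice of both sexes, an inbred strain, aged 8 to 12 weeks and kept for 10 days in a cycle of 12 h light and 12 h dark before constant darkness. Control mice were fed ad libitum throughout, and fasted mice had no food from circadian time (CT) 10. Samples were taken every 4 h from CT8 to CT44 from 2 males and 2 females of each treatment, which gave 80 libraries, 1 per mouse, with 40 per treatment. At CT8 both groups were still fed, and the fast was 2 h old at CT12 and 34 h old at CT44. The labels give no genotype beyond the strain, and both groups were in constant darkness.

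The title of a library and its other labels gave different sexes in 40 of 80 cases and different treatments in 40. Grouping followed the titles, and the levels of Xist and Ddx3y matched the titled sex in 80 of 80 libraries. Summed over all genes, a library held 25534901 to 59927771 counts, with a median of 42303883, and no library had fewer than 75 counts of any of the 10 genes. Hepatocyte markers summed to 55300 to 106000 CPM (counts scaled by TMM to a common library total) in control and 68600 to 126000 CPM in fasted livers, and 5 of 6 exocrine pancreas markers had a mean of at most 0.154 CPM in control and 0.00533 CPM in fasted livers, the sixth, Cela1, going from 12 to 5.12 CPM. Over all genes tested, 29.5% were called higher and 32.9% lower in fasted livers in the mean of CT12 to CT44. Among markers of other cells, 0 of 6 Kupffer cell genes rose and 5 fell with fasting, their sum having a median of 291 CPM in control and 223 CPM in fasted livers, and 1 of 6 stellate cell and fibroblast genes rose and 5 fell. Of bile duct genes 0 of 6 rose and 4 fell, of lymphocyte genes 0 of 6 and 3, of red cell genes 0 of 5 and 2, of tested neutrophil genes 0 of 4 and 0, of endothelial genes 3 of 6 and 2, of pericentral hepatocyte genes 3 of 8 and 4, and of periportal ones 5 of 8 and 2. The part of these shifts in the results below was not tested. In whole liver, fewer cells of a type and less RNA per cell cannot be told apart. The library of control CT8 female 2 stood apart through a ribosomal RNA gene, Rn18s-rs5, which took 31.3% of its counts against a median of 0.101% over all libraries.

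The antioxidant response element has the core TGACNNNGC, and this core was searched for on both strands in RefSeq promoters of GRCm38.p6. Each window ran from 250 bases before to 50 bases after a start given by RefSeq. It occurred in 4071 of 32851 such promoters of 300 bases, or 12.4%. Of the 10 genes, 8 have an entry in the table of promoters, and 5 of these held 1 match: Nfe2l2, Srxn1, Gclm, G6pdx and Txnrd1, the last in 1 of its 3 promoters. No match was found in those of Keap1, Nqo1 and Gss, and the promoters of Gsr and Gclc were not analysed here. No other motif was searched, and a match is a string of letters in this window that was not tested as a binding site. The 5 promoters with a match are printed because the match is found in genes of each outcome in the mean of the fast, Srxn1 that rose, Nfe2l2, Gclm and G6pdx that fell and Txnrd1 that was not called, with the match in capitals and the rest in lower case, 5′ to 3′ along the gene. They lie at chr2:75704614-75704913 on the minus strand for Nfe2l2, chr2:152105274-152105573 on the plus strand for Srxn1, chr10:82858956-82859255 on the plus strand for Txnrd1, chr3:122245307-122245606 on the plus strand for Gclm and chrX:74428831-74429130 on the minus strand for G6pdx.
Nfe2l2: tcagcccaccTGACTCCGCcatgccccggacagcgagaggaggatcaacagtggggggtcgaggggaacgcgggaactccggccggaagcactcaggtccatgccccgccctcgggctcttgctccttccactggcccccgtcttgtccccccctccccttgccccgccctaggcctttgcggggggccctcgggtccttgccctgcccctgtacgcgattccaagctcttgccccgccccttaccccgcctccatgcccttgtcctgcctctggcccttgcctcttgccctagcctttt
Srxn1: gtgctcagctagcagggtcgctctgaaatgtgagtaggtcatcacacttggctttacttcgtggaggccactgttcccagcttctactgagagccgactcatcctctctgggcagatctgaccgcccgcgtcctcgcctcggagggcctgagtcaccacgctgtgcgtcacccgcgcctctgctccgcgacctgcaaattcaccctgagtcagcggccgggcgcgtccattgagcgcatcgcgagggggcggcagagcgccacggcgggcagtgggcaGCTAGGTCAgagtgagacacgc
Txnrd1: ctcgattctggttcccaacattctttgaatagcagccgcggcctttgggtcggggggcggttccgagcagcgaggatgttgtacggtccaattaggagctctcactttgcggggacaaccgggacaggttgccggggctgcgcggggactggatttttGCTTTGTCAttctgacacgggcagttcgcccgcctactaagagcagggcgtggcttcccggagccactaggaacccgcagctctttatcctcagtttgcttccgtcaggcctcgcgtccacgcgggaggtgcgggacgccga
Gclm: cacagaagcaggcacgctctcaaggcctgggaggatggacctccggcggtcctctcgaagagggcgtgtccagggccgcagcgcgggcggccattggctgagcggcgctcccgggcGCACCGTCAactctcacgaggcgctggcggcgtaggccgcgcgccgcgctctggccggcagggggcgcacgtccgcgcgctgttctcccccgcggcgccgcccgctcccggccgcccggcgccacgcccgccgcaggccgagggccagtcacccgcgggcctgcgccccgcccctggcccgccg
G6pdx: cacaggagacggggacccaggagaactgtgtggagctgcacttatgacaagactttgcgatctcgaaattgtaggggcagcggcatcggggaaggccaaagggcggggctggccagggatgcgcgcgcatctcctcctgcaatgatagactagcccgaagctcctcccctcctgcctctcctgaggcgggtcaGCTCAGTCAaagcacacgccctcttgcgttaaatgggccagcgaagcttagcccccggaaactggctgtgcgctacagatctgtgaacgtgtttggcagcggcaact
Counted from the RefSeq start, the first base of the match lies at -240 in Nfe2l2, at 28 in Srxn1 and at -92 in Txnrd1. It lies at -134 in Gclm and at -57 in G6pdx. A RefSeq start can differ from the end of the gene in GENCODE M21. The printed promoters of Txnrd1 and G6pdx lie within the spans of these genes in GENCODE M21, chr10:82833951-82897712 and chrX:74409483-74429194. The match reads along the gene in Nfe2l2 and on the opposite strand in the others.

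The fast did not move these genes in 1 direction. Averaged over CT12 to CT44, when the fasted mice were without food, 4 of the 10 rose (Srxn1, Gsr, Nqo1 and Gss), 4 fell (G6pdx, Gclc, Gclm and Nfe2l2), and Keap1 and Txnrd1 did not pass the test. Over all genes tested, 29.5% were called higher and 32.9% lower in this comparison, so that the counts of 4 and 4 lie near the background. The median log2 difference over the 10 genes was 0.01, against -0.02 over all genes. The test was edgeR's quasi-likelihood test over 80 libraries, with p-values adjusted over all genes tested by the Benjamini-Hochberg method and called under 0.05.

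**Figure D1:**
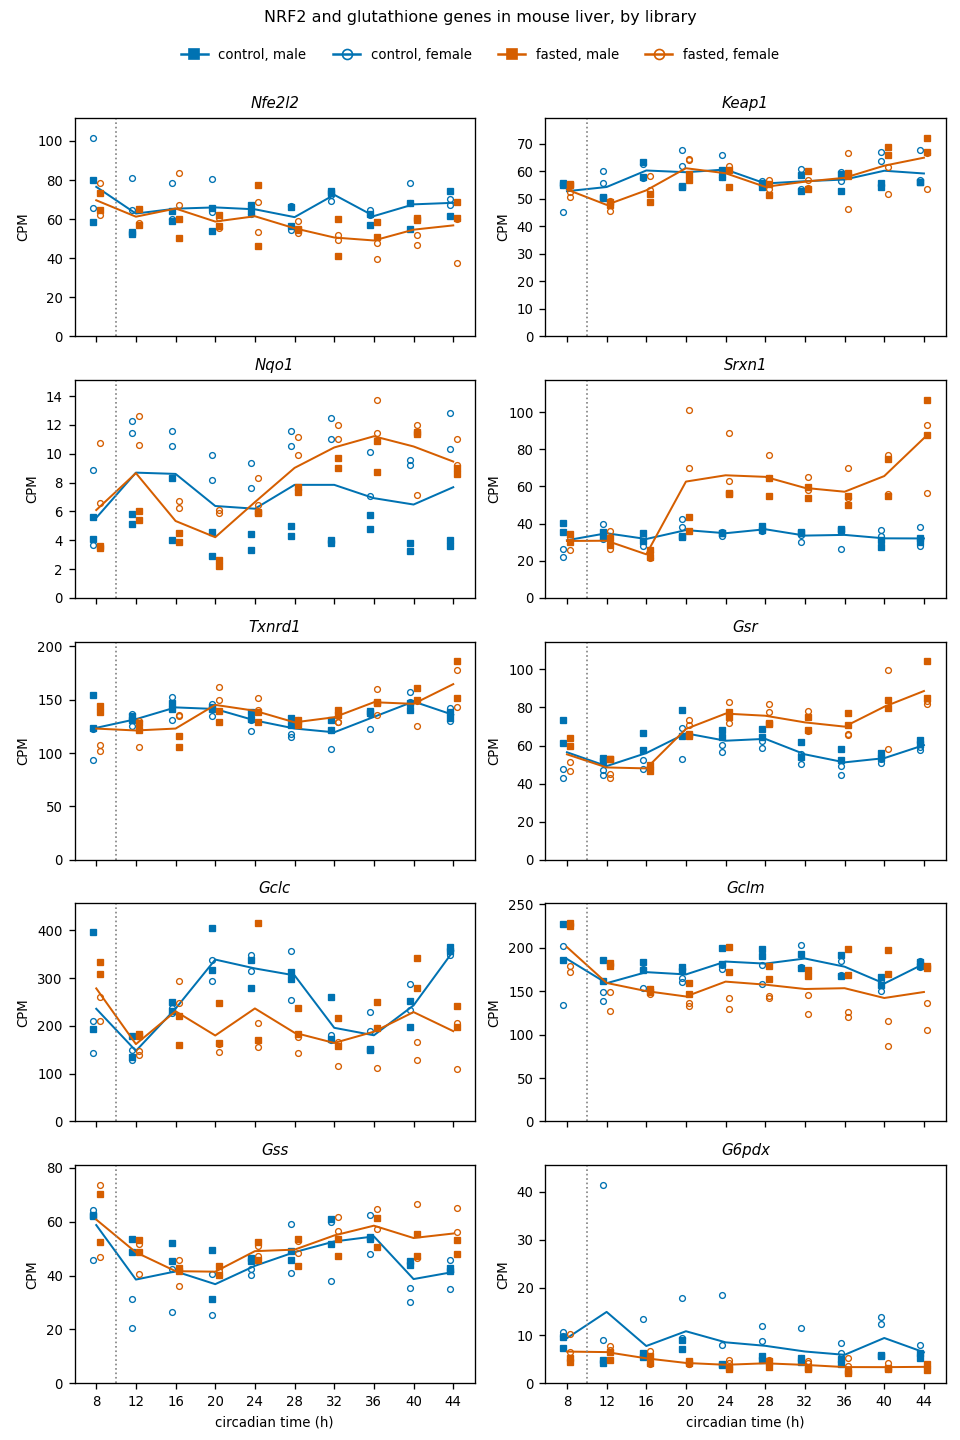
Level of each gene (CPM) against circadian time (h) in each of the 80 libraries, squares for males and open circles for females, with lines through the means of 4 libraries and a dotted line where food was removed. Srxn1 and Gsr of fasted livers lie above the controls from CT24 on, while G6pdx of fasted livers lies low and the controls include 1 female at 41.5 CPM at CT12.

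Levels between genes can be compared only per length, here in CPM per kb of the exons of GENCODE M21, as mean ± SD over the 40 control libraries. Gclc stood highest at 68 ± 21.3, followed by Gclm at 28 ± 2.9, Gsr at 20.8 ± 2.97, Txnrd1 at 18.8 ± 1.83 and Nfe2l2 at 17.6 ± 2.54. Keap1 at 12.3 ± 1.02, Srxn1 at 12 ± 1.5, Gss at 7.7 ± 1.84, Nqo1 at 4.65 ± 2.08 and G6pdx at 2.86 ± 2.07 were lower. The neighbours Gsr and Txnrd1, Txnrd1 and Nfe2l2, Keap1 and Srxn1, and Nqo1 and G6pdx differed by less than the larger of their SDs.

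The number of the 10 genes that were called was 0 up to CT12 and highest at CT44. At CT8, before food was removed, 0 were called (1.33% of all genes in either direction), and at CT12, after 2 h without food, 0 again (1.6%). At CT16 0 were higher and 3 lower (23.4%), at CT20 1 was higher and 4 lower (36.6%), and at CT24 2 were higher and 1 lower (24.1%). The later times were mixed as well. At CT28 2 were higher and 2 lower (21%), at CT32 3 were higher and 2 lower (17.7%), at CT36 3 were higher and 2 lower (26.8%), at CT40 4 were higher and 1 lower (39.9%), and at CT44, after 34 h, 5 were higher and 3 lower (39.4%). Of the 90 pairs of a gene and a time from CT12 to CT44, 38 were called, 20 higher and 18 lower.

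**Figure D2:**
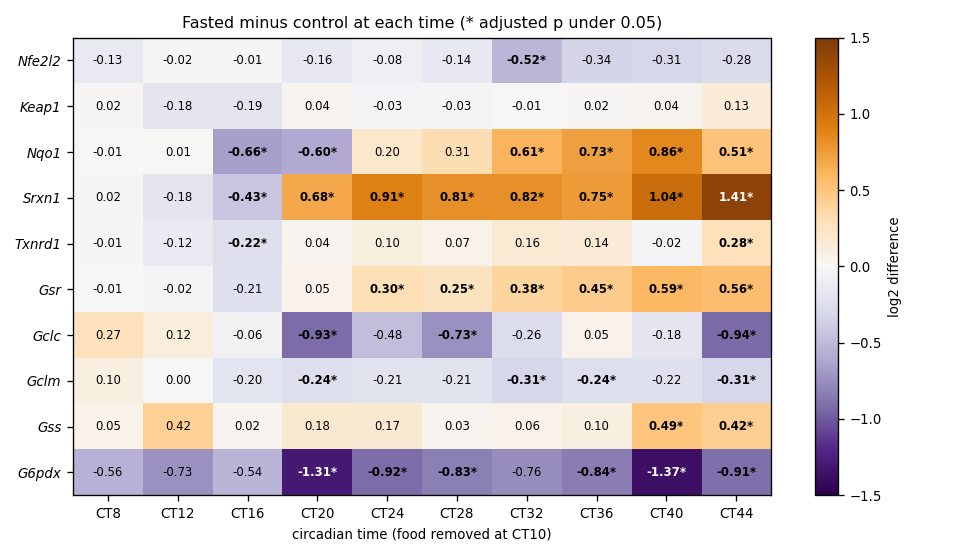
Log2 difference, fasted minus control, of each gene (rows) at each circadian time (columns, h), from the fit over 80 libraries; orange is higher and purple lower in fasted livers, and stars mark an adjusted p under 0.05. Nqo1 and Srxn1 turn from lower at CT16 to higher later, and the row of Keap1 holds no star.

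Nfe2l2, the gene of NRF2 itself (chr2:75675513-75704641, minus strand, positions of the genes here being those of GENCODE M21 on GRCm38), fell. Its level was 52.2 to 80.9 CPM in the 36 control libraries from CT12 to CT44 with a median of 65.2, and 37.7 to 83.7 CPM with a median of 57.4 in the 36 fasted libraries. The groups overlapped, and the log2 difference was -0.21 ± 0.05 (SE; fold 0.866, adjusted p = 0.000201). At CT32 the 4 control livers (females, then males) had 72.6, 69.3, 74.4 and 73.4 CPM and the 4 fasted livers 52.0, 49.1, 59.8 and 41.1 CPM. All fasted livers lay below all controls there, with a log2 difference of -0.52 ± 0.14 (adjusted p = 0.00808), and of the 9 times CT32 was the only one at which Nfe2l2 was called. That call was lost without male replicate 2 (adjusted p = 0.221). In females the mean difference was -0.30 (adjusted p = 0.000152) and in males -0.11 (adjusted p = 0.179).

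Keap1, which encodes the adaptor that marks NRF2 for degradation (chr9:21229730-21239361, minus strand), did not pass the test. Control livers had 50.4 to 67.7 CPM with a median of 57.1 and fasted livers 45.5 to 72.1 CPM with a median of 56.9 from CT12 to CT44, and the log2 difference was -0.02 (95% interval -0.08 to 0.03, adjusted p = 0.466). At CT12 the 4 fasted livers, at 49.0, 45.5, 47.7 and 48.8 CPM, lay below the 4 controls, at 60.0, 55.8, 50.7 and 50.4 CPM, yet the difference of -0.18 at that time was not called. Keap1 shares 510 of its 4693 exonic bases with Gm16754 on the opposite strand, which had 0.288 CPM in control and 0.09 CPM in fasted livers. The log2 ratio of Nfe2l2 to Keap1 within a library was lower in fasted livers by a mean of -0.19 (permutation test with labels exchanged within time and sex, 100000 resamples, two-sided, p = 0.00068, adjusted over 2 ratios to 0.00136). In males alone it was not called (-0.16, adjusted p = 0.0659). The direction was not the same throughout, since the mean ratio was 0.36 in fasted and 0.19 in control livers at CT12 and 0.28 and 0.11 at CT16. At CT44 it was 0.06 to 0.41 in the controls and -0.51 to 0.04 in the fasted livers, without overlap.

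The transcripts of Nfe2l2 also changed in make-up. Exon usage, the share of a gene's exon counts that falls on each exon bin, was tested with edgeR's diffSpliceDGE over 233672 bins of 13889 genes, and 3 of the 10 genes were called (Nfe2l2, Txnrd1 and Gss), against 14.3% of all genes tested. In Nfe2l2 (adjusted p = 5.64e-24 over 7 bins) a single bin, number 5, was behind the call, with a relative log2 change of 0.84 and an adjusted p of 8.96e-24 for the bin. Its share was 2.84% ± 0.849 (SD, n = 36, from 1.73 to 5.37%) in control livers and 8.94% ± 10.6 (SD, n = 36, from 1.32 to 48.9%) in fasted livers from CT12 to CT44.

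The rise of the bin came late and was uneven between animals. From CT12 to CT20, 1 of 12 fasted libraries exceeded the highest control share, and from CT24 to CT44 15 of 24 did. The share was 4.75 to 24.4% at CT28, 7.3 to 15.5% at CT32 and 4.96 to 12.5% at CT36 in the 4 fasted livers of each time, whereas controls of these times had 2.19 to 4.22%. At CT40 and CT44 a single fasted liver each, at 48.9% and 44%, stood far above the others, whose shares reached down to 2.37% and 2.97%. The call did not rest on CT40, since without it the adjusted p was 3.53e-20.

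The bin grew in its own right while the rest of the gene shrank. Scaled to the exon counts of each library (CPM), bin 5 had a median of 1.12 in control and 2.74 in fasted libraries from CT24 to CT44, and the other 6 bins together had 45.8 and 32.4. The deposited bins carry no coordinates. GENCODE M21 also divides the gene into 7 parts, and by that order bin 5 lies at chr2:75691052-75692372, 1321 bases in an exon that belongs to Nfe2l2-202, a transcript without a coding sequence, and not to the coding transcript Nfe2l2-201. Counted from the other 6 bins alone, a measure chosen after the data had been seen, Nfe2l2 fell by a log2 difference of -0.31 ± 0.09 (adjusted p = 0.00248). The gene count gave -0.21 ± 0.05. Leaving out a bin that rose in these data lowers the value by itself, and the 2 values were not tested against each other. At CT32 the difference of -0.69 ± 0.27 was not called (adjusted p = 0.0679), the SE from the gene count being 0.14 there. That fit took the exon columns of fasted CT40 by name and sex, although 3 of them went with another library of that group. The part of this mismatch in these values was not tested.

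**Figure D3:**
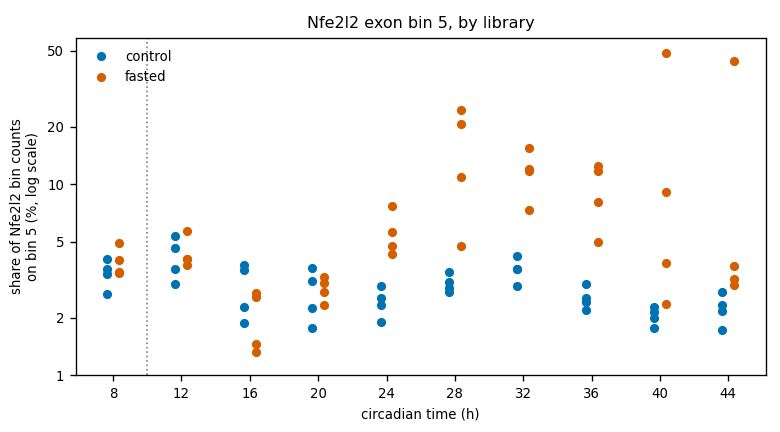
Share of the exon counts of Nfe2l2 that falls on bin 5 (%, log scale) against circadian time (h) in each of 80 libraries, blue for control and orange for fasted livers, with a dotted line where food was removed. Controls lie between 1.73 and 5.37% from CT12 on, and most fasted libraries from CT24 on lie above them, the highest at 48.9%.

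Srxn1 encodes sulfiredoxin, which repairs over-oxidised peroxiredoxins (chr2:152105516-152111376, plus strand), and showed the largest rise of the 10 genes. From CT12 to CT44 control livers had 26.1 to 42.2 CPM with a median of 34.9, and fasted livers 21.7 to 107 CPM with a median of 56.2. The log2 difference was 0.65 ± 0.05 (fold 1.56, adjusted p = 1.45e-16).

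Early in the fast Srxn1 was lower. At CT16, after 6 h without food, control livers had 27.8, 33.4, 34.8 and 30.8 CPM (2 females, then 2 males, as in all lists of 4 below) and fasted livers 24.5, 21.7, 25.8 and 21.9 CPM. All 4 fasted livers lay below the controls, with a log2 difference of -0.43 ± 0.14 (adjusted p = 0.0191), but the call was lost without female replicate 2 (adjusted p = 0.0527), male replicate 1 (0.17) or male replicate 2 (0.217). By CT20 the 2 fasted females had reached 101 and 69.9 CPM, and the 2 fasted males 36.0 and 43.6 CPM, against 42.2, 38.0, 32.7 and 33.1 CPM in the controls. The groups overlapped at CT20 through the males, and the log2 difference was 0.68 ± 0.14 (adjusted p = 0.000105). At each time from CT24 to CT44 every fasted liver lay above every control. At CT44 control livers had 27.9, 38.0, 30.0 and 32.2 CPM and fasted livers 56.5, 93.2, 87.4 and 107 CPM, which is a log2 difference of 1.41 ± 0.14 (fold 2.66, adjusted p = 5.52e-11).

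Nqo1 encodes the quinone reductase that is the classic readout of NRF2 (chr8:107388225-107403206, minus strand). It was scarce, at 2.89 to 12.8 CPM with a median of 7.34 in control and 2.21 to 13.8 CPM with a median of 8.69 in fasted livers from CT12 to CT44, and its mean log2 difference was 0.22 ± 0.06 (fold 1.16, adjusted p = 0.00221). That mean covers a change of sign. Nqo1 was lower in fasted livers at CT16, by -0.66 ± 0.19 (adjusted p = 0.00806), and at CT20, by -0.60 ± 0.19 (adjusted p = 0.0115). It was higher at each time from CT32 to CT44, with log2 differences of 0.61, 0.73, 0.86 and 0.51 and adjusted p-values of 0.0168, 0.00268, 0.000245 and 0.0265. Of these 6 calls, CT40 alone was kept in every alternative, and the others were each lost without male replicate 1 (adjusted p from 0.0638 to 0.352), CT16 also with its 8 libraries alone (0.0616). At CT40 control livers had 9.25, 9.57, 3.83 and 3.28 CPM and fasted livers 12.0, 7.14, 11.5 and 11.4 CPM. The fasted males lay far above the control males at CT40, while the females overlapped, and at no time were the 4 fasted livers of Nqo1 clear of the 4 controls. The mean was no longer called without CT40 (0.14, adjusted p = 0.0687) or without male replicate 2 (0.18, adjusted p = 0.0692).

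Txnrd1 encodes the cytosolic thioredoxin reductase (chr10:82833951-82897712, plus strand), and its mean did not pass the test. Control livers had 104 to 158 CPM with a median of 135 and fasted livers 106 to 186 CPM with a median of 136, with a log2 difference of 0.05 (95% interval -0.01 to 0.10, adjusted p = 0.138), although it was called without CT16 (0.08, adjusted p = 0.0148). It was called at 2 single times, lower at CT16 (-0.22 ± 0.08, adjusted p = 0.0398) and higher at CT44. At CT44 control livers had 130, 142, 138 and 132 CPM and fasted livers 143, 178, 151 and 186 CPM, so that the groups did not overlap (log2 difference 0.28 ± 0.08, adjusted p = 0.00534). Both calls were lost with the 8 libraries of the time alone (adjusted p = 0.0894 and 0.0678), without a filter (0.291 and 0.0799) and without male replicate 2 (0.167 and 0.329), and that of CT16 also without male replicate 1 (0.381) or female replicate 2 (0.186). In exon usage (adjusted p = 4.74e-06) its bins 10, 19 and 25 were called, each under 1% of the gene: the mean share of bin 10 was 0.148% in control and 0.314% in fasted livers, and that of bin 19 was 0.327% and 0.476%. The call of Txnrd1 was lost when bins had to hold at least 10 counts in every library. That limit removes bins of low count before the test. Mean counts in control livers were 16.1 for bin 10, 35.9 for bin 19 and 13.6 for bin 25.

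Gsr, glutathione reductase, returns oxidised glutathione to its reduced form with NADPH (chr8:33652523-33698163, plus strand), and rose. From CT12 to CT44 control livers had 44.6 to 78.5 CPM with a median of 57.2 and fasted livers 43.0 to 104 CPM with a median of 71.5, with a log2 difference of 0.26 ± 0.03 (fold 1.2, adjusted p = 6.06e-10). It was not called at CT12, CT16 or CT20. From CT24 to CT44 it was called at each time, with log2 differences of 0.30, 0.25, 0.38, 0.45, 0.59 and 0.56, and at each of these times the 4 fasted livers lay above the 4 controls. The calls of CT24 to CT36 were lost without male replicate 1, and those of CT24 and CT28 also without male replicate 2 or without a filter (adjusted p = 0.078 and 0.199). That of CT28 was lost with the replicate block too (0.0541). At CT44 control livers had 57.9, 59.2, 60.9 and 62.8 CPM and fasted livers 82.0, 83.2, 85.1 and 104 CPM (adjusted p = 5.16e-06).

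Glutathione is built in 2 steps, and in the mean of both sexes the genes of these steps went in opposite directions. Gclc and Gclm encode the catalytic and the modifier subunit of glutamate-cysteine ligase, the rate-limiting enzyme, and both fell. Gss encodes glutathione synthetase, which adds glycine, and it rose. In males the differences of Gclc (-0.16, adjusted p = 0.187), Gclm (-0.06, adjusted p = 0.274) and Gss (0.04, adjusted p = 0.735) were not called.

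Gclc (chr9:77754535-77794485, plus strand) lay, in CPM, at 128 to 404 with a median of 253 in control and at 110 to 415 with a median of 180 in fasted livers from CT12 to CT44 (log2 difference -0.38 ± 0.07, fold 0.77, adjusted p = 9.7e-06). The fall was called at 3 times. At CT20 control livers had 338, 295, 404 and 318 CPM and fasted livers 145, 163, 247 and 165 CPM, with a log2 difference of -0.93 ± 0.21 (adjusted p = 0.000527). At CT44, 24 h later, control livers had 357, 347, 364 and 357 CPM and fasted livers 110, 206, 243 and 197 CPM, with a log2 difference of -0.94 ± 0.21 (adjusted p = 0.000445). At CT28 the log2 difference was -0.73 ± 0.21 (adjusted p = 0.00987, but 0.0534 to 0.0888 without female replicate 1, female replicate 2 or male replicate 2), and at CT20, CT28 and CT44 all fasted livers lay below all controls. Between these times the levels met, and at CT36 fasted livers had 195, 112, 250 and 196 CPM against 230, 190, 152 and 150 CPM in the controls.

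Gclm (chr3:122245557-122270732, plus strand) fell less. It had 139 to 203 CPM with a median of 178 in control and 86.5 to 201 CPM with a median of 149 in fasted livers (log2 difference -0.22 ± 0.03, fold 0.861, adjusted p = 6.66e-08), and it was called lower at CT20, CT32, CT36 and CT44. Each of these calls was lost without male replicate 1 and without male replicate 2, those of CT20, CT32 and CT36 without a filter (adjusted p = 0.178, 0.0762 and 0.174), and those of CT20 and CT44 without female replicate 1 (0.0517 and 0.0538). That of CT36 was also lost with upper quartile scaling (0.106), with its 8 libraries alone (0.0784), without female replicate 2 (0.157) and without the library of control CT12 female 1 (0.0644). At CT44 control livers had 178, 185, 184 and 179 CPM and fasted livers 105, 136, 177 and 179 CPM. The 2 fasted females lay far below all controls there, whereas male 1 lay just below them and male 2 within their range (log2 difference -0.31 ± 0.09, adjusted p = 0.00697). The log2 ratio of Gclc to Gclm within a library was lower in fasted livers by a mean of -0.18 (permutation test with labels exchanged within time and sex, two-sided, p = 0.0183, adjusted p = 0.0183). It was not called in males alone (-0.12, adjusted p = 0.264) or without male replicate 2, female replicate 1 or female replicate 2. At CT44 this ratio was 0.91 to 1.00 in the controls and 0.07 to 0.60 in the fasted livers, and at CT36 it was -0.34 to 0.45 and -0.11 to 0.63.

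Gss (chr2:155563181-155592810, minus strand) had 20.4 to 62.6 CPM with a median of 45.3 in control and 36.2 to 66.5 CPM with a median of 49.8 in fasted livers (log2 difference 0.21 ± 0.06, fold 1.16, adjusted p = 0.000873). It was called at the last 2 times. At CT40 control livers had 35.5, 30.3, 43.8 and 45.3 CPM and fasted livers 46.6, 66.5, 47.3 and 55.4 CPM, without overlap (log2 difference 0.49 ± 0.17, adjusted p = 0.0144). At CT44 the log2 difference was 0.42 ± 0.17 (adjusted p = 0.037), again without overlap. Both calls were lost without male replicate 1 (adjusted p = 0.12 and 0.179) or 2 (0.188 and 0.303), and at CT40 the difference was 0.32 without female replicate 2 (0.0833). Gss shares 395 of its 5915 exonic bases with Acss2 on the opposite strand, an acetyl-CoA synthetase gene that fell by 2.10 on the log2 scale. The kit was stranded, but whether strand was used in counting is not given in the sources used here. The exon usage call of Gss (adjusted p = 0.00138) rested on bin 7, with a mean share of 0.402% in control and 0.588% in fasted livers, and was lost without CT40 (adjusted p = 0.237), without male replicate 1 (adjusted p = 0.173), male replicate 2 or female replicate 1, and with limma (adjusted p = 0.103).

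G6pdx encodes glucose-6-phosphate dehydrogenase, the entry to the pentose phosphate pathway and a source of the NADPH that the reductases above consume (chrX:74409483-74429194, minus strand), and it fell the most. From CT12 to CT44 control livers had 3.79 to 41.5 CPM with a median of 6.35 and fasted livers 2.10 to 7.71 CPM with a median of 4.09. The log2 difference was -0.91 ± 0.10 (fold 0.531, adjusted p = 1.49e-11), and it was negative at each of the 9 times and called at CT20, CT24, CT28, CT36, CT40 and CT44. With limma-voom the calls of CT24, CT28, CT36 and CT44 were lost (adjusted p = 0.0864, 0.0861, 0.112 and 0.065), as they were without male replicate 1 or male replicate 2, and at CT24 the difference shrank from -0.92 to -0.51 without female replicate 1 (adjusted p = 0.0501). At CT8, before food was removed, mice of the fasted group had 6.56, 10.3, 5.28 and 4.37 CPM against 9.78, 10.8, 9.73 and 7.44 CPM, a log2 difference of -0.56 ± 0.28 that was not called (adjusted p = 0.397). At CT40 control livers had 13.8, 12.5, 5.86 and 5.71 CPM and fasted livers 4.30, 3.02, 3.07 and 3.09 CPM. All fasted livers lay below all controls at CT40, with a log2 difference of -1.37 ± 0.29 (fold 0.387, adjusted p = 0.000158). At CT20 control livers had 9.50, 17.7, 7.13 and 9.15 CPM and fasted livers 3.95, 4.08, 4.34 and 4.63 CPM (log2 difference -1.31 ± 0.28, adjusted p = 0.000244). The library of control CT12 female 1, at 41.5 CPM, stood alone. Without it the mean log2 difference was -0.83 and was still called (adjusted p = 1.85e-12). G6pdx shares 418 of its 3080 exonic bases with Ikbkg on the opposite strand, which had 84.8 CPM in control and 102 CPM in fasted livers.

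The phase of the day can be held fixed by comparing the fasting effect at CT36, CT40 and CT44 with that at CT12, CT16 and CT20, 24 h earlier. By this contrast 5 of the 10 genes were higher late in the fast, against 9.91% of all genes tested, and 0 were lower, against 11.3%, and the count of 5 fell to 3 when male replicate 1 or male replicate 2 was left out. The mean fasting effect of Nqo1 on the log2 scale went from -0.42 early to 0.70 late, a change of 1.12 ± 0.15 (adjusted p = 7.86e-07). That of Srxn1 went from 0.02 to 1.07, a change of 1.04 ± 0.11 (adjusted p = 4.4e-09), and that of Gsr from -0.06 to 0.53, a change of 0.60 ± 0.08 (adjusted p = 2.02e-07). These 3 enzymes thus gained most between the days. Txnrd1 changed by 0.24 ± 0.07 (adjusted p = 0.00846) and Keap1 by 0.17 ± 0.06 (adjusted p = 0.0442). Both calls were lost without a filter (adjusted p = 0.125 and 0.373), and without male replicate 1 or male replicate 2. That of Keap1 was also lost with limma-voom (0.0508) and with the replicate block (0.0504). The same held without female replicate 1 (a change of 0.102) or the library of control CT12 female 1 (0.174). The changes of Gss (0.13), Gclc (-0.07), Gclm (-0.11), G6pdx (-0.18) and Nfe2l2 (-0.24) were not called.

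The sexes differed in the fasting effect for 5 of the 10 genes, against 12.4% of all genes tested, by the interaction of treatment and sex. Nqo1 rose in males by 0.58 ± 0.09 on the log2 scale (adjusted p = 5.38e-07) and had a difference of -0.15 ± 0.09 in females (adjusted p = 0.151). The difference between the sexes, females minus males, was -0.73 ± 0.12 (adjusted p = 0.00011). Fed females carried more Nqo1 to begin with: 20 control females had 3.64 to 12.8 CPM with a median of 10.2, and 20 control males 2.89 to 8.33 CPM with a median of 4.20. Their log2 difference, females minus males, was 1.13 ± 0.09 (fold 2.19, adjusted p = 3.37e-15). Fasted males from CT12 to CT44 had a median of 7.50 CPM and fasted females one of 10.3 CPM, so that the gap between the sexes was narrower in the fast.

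The falls of Gclc, Gclm and G6pdx were larger in females. Gclm fell in females by 0.37 on the log2 scale (adjusted p = 9.62e-10) and had a difference of -0.06 in males (adjusted p = 0.274), and the sexes differed by -0.31 ± 0.06 (adjusted p = 0.000826). Over CT12 to CT44 the 18 fasted females had 86.5 to 153 CPM of Gclm with a median of 135, below the 147 to 201 CPM with a median of 173 of the 18 fasted males save for a narrow overlap. Gclc fell in females by 0.59 (adjusted p = 2e-06) and had a difference of -0.16 in males (adjusted p = 0.187), and the sexes differed by -0.43 ± 0.14 (adjusted p = 0.0378). That call was lost without female replicate 1 (a difference of -0.429) and without female replicate 2 (-0.465). G6pdx fell in both sexes, by 1.30 in females and 0.53 in males, and the sexes differed by -0.77 ± 0.19 (adjusted p = 0.00551), a call that was lost with limma-voom (adjusted p = 0.0705).

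Gss was the exception, since it rose in females by 0.38 (adjusted p = 3.93e-05) and had a difference of 0.04 in males (adjusted p = 0.735), with a difference between the sexes of 0.35 ± 0.11 (adjusted p = 0.0309). The sex differences of Gclc and Gss were lost without the library of control CT12 female 1 (adjusted p = 0.0591 and 0.0527), and without male replicate 1 or male replicate 2 the count of 5 fell to 1. Nqo1 was that gene in both cases. Srxn1 rose in both sexes, by 0.56 in males and 0.74 in females, as did Gsr, by 0.19 and 0.33. For neither was the sex difference called (adjusted p = 0.202 and 0.134), nor for Nfe2l2 (-0.19, 95% interval -0.38 to 0.001, adjusted p = 0.192), Keap1 (-0.13, adjusted p = 0.0932) and Txnrd1 (0.08, adjusted p = 0.385).

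In fed livers 6 of the 10 genes differed between the sexes, against 39.2% of all genes tested. Besides Nqo1, G6pdx was higher in females, with a median of 9.64 CPM (5.35 to 41.5, n = 20) against 5.45 CPM (3.79 to 9.73, n = 20) in males and a log2 difference of 0.98 ± 0.12 (fold 1.98, adjusted p = 1.48e-08). Gsr (-0.22, adjusted p = 4.25e-05), Gss (-0.27, adjusted p = 0.00283) and Gclm (-0.11, adjusted p = 0.0294) were lower in females, and Keap1 was slightly higher (0.09, adjusted p = 0.0409). For each of the 6 genes the ranges of the sexes overlapped. Leaving out a single library lost the call of Gclm (control CT8 female 2, difference -0.089) and that of Keap1 (control CT12 female 1, 0.079). With the replicate block the calls of Gss (adjusted p = 0.0502), Gclm (0.18) and Keap1 (0.15) were lost. That of Gss was also lost without male replicate 1 (a difference of -0.237).

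**Figure D4:**
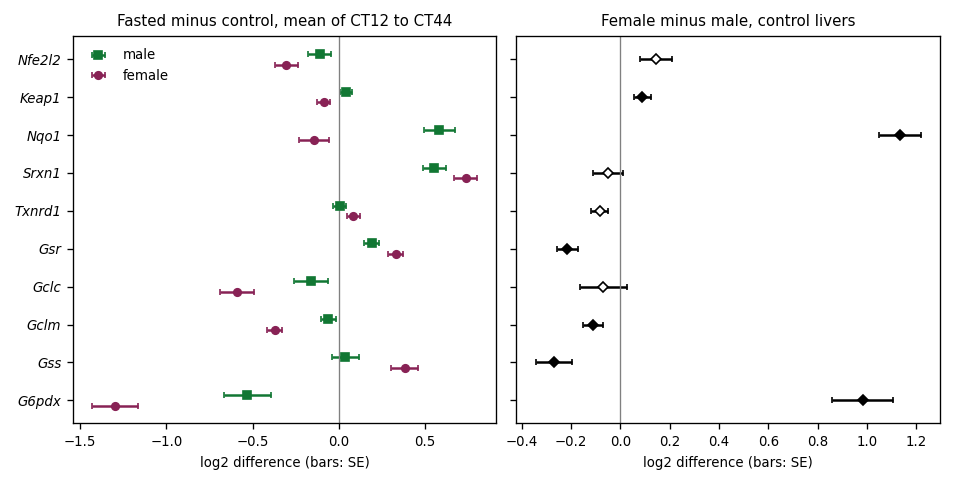
Left, log2 difference between fasted and control livers over CT12 to CT44 in males (squares) and females (circles); right, log2 difference between females and males in control livers, filled where the adjusted p was under 0.05; bars are SE. Nqo1 rises in males at 0.58 while females lie at -0.15, and Nqo1 and G6pdx are the 2 genes with much more RNA in fed females, at 1.13 and 0.98.

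Several of these genes had a daily rhythm in fed mice. A cosine with a period of 24 h was fitted to the 40 control libraries, and 5 of the 10 genes were called rhythmic, against 41.8% of all genes tested. Gclc had the largest swing, with a peak-to-trough size of 1.07 on the log2 scale and a fitted peak at CT23.2, late in the subjective night (adjusted p = 7.04e-08). Its mean in control livers was 148 CPM ± 22.5 (SD, n = 4) at CT12, 339 ± 47.3 at CT20, 180 ± 37.7 at CT36 and 357 ± 6.98 at CT44. The level thus went up and down on both days. Gsr had a size of 0.37 and a peak near the same hour, at CT0.08 (adjusted p = 1.36e-05), Gss one of 0.50 with a peak at CT6.9 (adjusted p = 0.00357), Txnrd1 one of 0.27 at CT17.3 (adjusted p = 0.000119) and Keap1 one of 0.15 at CT19.8 (adjusted p = 0.0145). The call of Keap1 was lost without a filter (adjusted p = 0.0637), without female replicate 1 (0.0725) or 2 (0.181) and in males alone (0.467), that of Gss without male replicate 2 (0.0543) and in females alone (0.0982), and that of Txnrd1 in males alone (0.162). Gclm was not called (0.18, adjusted p = 0.0568), nor were Nfe2l2, Nqo1, Srxn1 and G6pdx. Without control CT8 female 2, Gclm was called (0.21, adjusted p = 0.00894).

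Rhythms of the 2 treatments were set against each other in 1 fit of the 72 libraries from CT12 onwards, which also allowed each treatment a linear trend. They differed for 2 of the 10 genes, against 23.2% of all genes tested. The swing of Gclc went from 1.13 in control to 0.32 in fasted livers (adjusted p = 0.00261 for the difference), and its fasted rhythm was not called (adjusted p = 0.196). Fasted livers had a mean of 180 CPM ± 45.5 at CT20 and 189 ± 56.2 at CT44, the hours of the peak in the controls. Srxn1 went the other way, from 0.15 to 0.83 with a fasted peak at CT1.13 (adjusted p = 0.0101). Nqo1 had 0.26 in control and 0.87 in fasted livers, and the difference was not called (adjusted p = 0.0514). In the same fit 5 of the 10 genes were rhythmic in fasted livers (Keap1, Nqo1, Srxn1, Txnrd1 and Gsr), against 50.4% of all genes tested. Both calls of a difference were lost without male replicate 1 and without female replicate 1, and that of Srxn1 without the linear change over time (adjusted p = 0.114). With 9 times 4 h apart, a rhythm of fasted livers cannot be told apart from a change over the fast that is not linear.

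**Figure D5:**
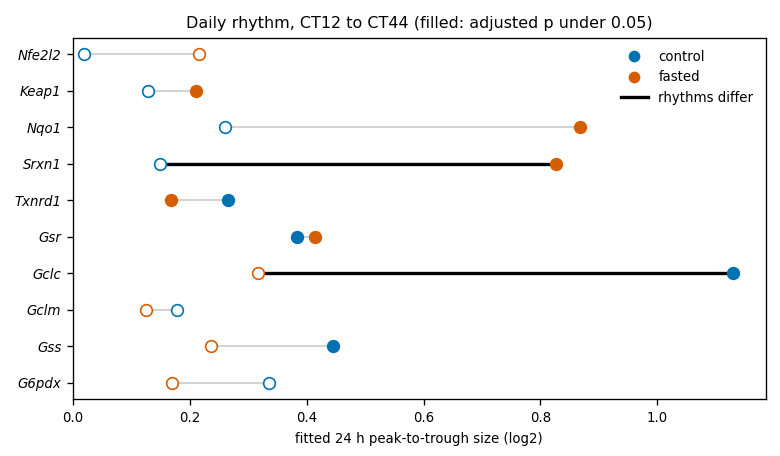
Fitted 24 h peak-to-trough size (log2) of each gene in control (blue) and fasted (orange) livers from CT12 to CT44, filled where the rhythm had an adjusted p under 0.05, joined by a black line where the rhythms differed. The swing of Gclc falls from 1.13 to 0.32 and that of Srxn1 grows from 0.15 to 0.83.

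Other genes of the pathway also went both ways. Of 14 partners and regulators of NRF2, 9 rose, 4 fell and 1 was not called in the mean of CT12 to CT44, with a median log2 difference of 0.17 against -0.02 over all genes, of which 29.5% rose and 32.9% fell. The largest rises were those of Maff (1.67 ± 0.16) and Mafk (0.62), small Maf proteins that pair with NRF2, and of Bach1 (0.56), a repressor that competes for the same elements. The largest falls were those of Syvn1 (-0.22), an endoplasmic reticulum ubiquitin ligase, Dpp3 (-0.10), a peptidase that binds KEAP1, and Btrc (-0.09), an adaptor of another ubiquitin ligase of NRF2.

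Among 33 other NRF2 target genes that were tested, 11 rose, 16 fell and 6 were not called, with a median of -0.18. The share that rose lies near the background of 29.5%, and 32.9% of all genes fell. The extremes named here and below are those of called genes with a mean log2 CPM of at least 1. Abcc3, an exporter of conjugates (0.76), Cbr1, carbonyl reductase (0.37), and Pir (0.30) rose the most. Gstm3 (-2.25 ± 0.10) and Gstm6 (-1.42), both glutathione transferases, and Osgin1 (-1.32) fell the most. Below that level, Ptgr1 (-1.67) and Gsta1 (-1.54) fell by more than Gstm6.

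Of 30 tested genes of glutathione use and breakdown, 11 rose, 13 fell and 6 were not called, with a median of -0.05. Over all genes tested, 29.5% were called higher and 32.9% lower. With the same limit on level, Chac1, which cleaves glutathione (1.07), Glrx, glutaredoxin (1.06), and Gpx3, a secreted glutathione peroxidase (1.04), rose the most. Mgst3 (-0.75), Chac2 (-0.67) and Glo1, glyoxalase (-0.42), fell the most. Below that limit, Dpep1 rose by 1.26, more than Chac1, and Gpx8 (-0.53) and Gpx7 (-0.48) fell by more than Glo1. Of 24 thioredoxin and peroxiredoxin genes, 5 rose, 13 fell and 6 were not called, with a median of -0.12, beside the same shares over all genes. Txnip, the inhibitor of thioredoxin (2.07 ± 0.13), Sesn2 (1.61) and Msrb3 (0.32) led the rises, and Sesn3 (-0.52), Txnrd3 (-0.48) and Prdx4 (-0.47) led the falls.

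Of 18 genes of NADPH supply, 4 rose, 12 fell and 2 were not called, with a median of -0.37, beside 29.5% higher and 32.9% lower over all genes. Pgd (-0.94 ± 0.05), the next NADPH-making enzyme of the pentose phosphate pathway, Tkt, transketolase (-0.88), and Idh1, cytosolic isocitrate dehydrogenase (-0.74), fell the most. With the same limit on level, H6pd (0.52), the counterpart of G6pdx in the endoplasmic reticulum, Pgls (0.21) and Nadk, NAD kinase (0.12), rose the most. Below that limit, Nnt rose by 0.48, more than Pgls. The members of all 5 lists were chosen with earlier results of these data known. Txn1 (-0.33) and Prdx1 (-0.18), both called lower, were counted among the other NRF2 targets and again among the thioredoxin and peroxiredoxin genes.

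The genes whose time courses were most like those of the 10 were sought among 11575 genes by Pearson's r over the 20 means of treatment and time, as a description in which points share the effect of the fast. Srxn1 was most like Nsfl1c (0.952), Psmd3 (0.947) and Htatip2 (0.946), and Gsr most like Htatip2 (0.961), Fam219a (0.953) and Psmd2 (0.951). Both lists hold Htatip2 and a subunit gene of the proteasome. G6pdx was most like Scd2 (0.965), Dpysl2 (0.956) and Pgd (0.953), and Gclm most like Nectin3 (0.936), Chmp3 (0.927) and St6gal1 (0.916). Nqo1 came closest to Parl (0.899), Fbxo36 (0.898) and Sdhd (0.895), Txnrd1 to A430046D13Rik (0.893), Cct3 (0.879) and Cct5 (0.875), Gclc to Zfp652 (0.889), Repin1 (0.874) and Fbxo46 (0.873), and Nfe2l2 to Plac8 (0.881), Ecscr (0.876) and Ern1 (0.864). Gss (Ino80, 0.863; Nfx1, 0.857; Jade1, 0.849) and Keap1 (Ran, 0.827; Epm2aip1, 0.826; Psmd7, 0.822) had the least close neighbours. Among pairs of the 10 genes themselves, r was highest for Srxn1 and Gsr (0.924) and for Keap1 and Txnrd1 (0.812), and lowest for Srxn1 and G6pdx (-0.776) and for Nfe2l2 and Srxn1 (-0.757). The RNA of the factor and that of its target Srxn1 thus ran against each other over these 20 means. For Nfe2l2, r was also negative with Nqo1 (-0.681), Gsr (-0.618), Txnrd1 (-0.482), Gss (-0.269) and Keap1 (-0.2). It was positive with G6pdx (0.766), Gclm (0.73) and Gclc (0.485).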

How the data were processed

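RNA of 80 mouse livers was sequenced from both ends after selection of polyadenylated RNA with a stranded kit. The tables deposited by the authors and used here hold unnormalized whole-number counts for genes and for exon bins. A normalized table deposited by the authors was not used. The submitters' processing notes name Trimmomatic, HISAT2, DESeq2 and GRCm39. The counting program is not given in the sources used here, and the article is a review without methods for these data. The members and lists were chosen with earlier results of these data known.

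Libraries were grouped by title. Counts were filtered by edgeR's filterByExpr, scaled by TMM and fitted with edgeR 4.0.16 (limma 3.58.1, R 4.3.3) as 1 mean for each treatment, time and sex, with trended dispersions. The quasi-likelihood contrasts were the mean of CT12 to CT44, each time, the difference between sexes, females against males in controls, and late against early times. Rhythms were tested jointly on a cosine and a sine with a period of 24 h. Exon usage was tested with diffSpliceDGE and Simes' p per gene. The exon table has 5 rows for reads on no named exon. These, 8.28% to 25.9% of its counts (median 11.8%), were left out, and fasted CT40 was fitted as 1 group of 4 because 3 of its columns went with another library of that group. Log2 CPM had a prior count of 2. The fits were tested on simulated data. Replicate numbers were not taken as pairs. Differences of replicate 1 minus 2 correlated between groups of a sex by a median of 0.00316 in males and -0.00177 in females. The correlations ranged from -0.605 to 0.557, with 43 of 190 over 0.1 in each sex, which cannot exclude pairing between some groups.

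Named besides the 10 genes were, from each list, the 3 largest rises and falls that passed among genes with a mean log2 CPM not under 1, and for each gene the 3 nearest by Pearson's r. Alternatives were DESeq2's size factors, upper quartile scaling, no filter, limma-voom, DESeq2 1.42.0, an adjusted p of 0.01, a change of 1.5 times, single sexes, a replicate block, and leaving out replicates, times or single libraries. P-values measure the spread between single mice.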

Additional observations from a re-analysis of the deposited data

Results flagged for a closer look

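Single libraries stood apart in 11 of 200 groups of 4 libraries (10 genes in 20 groups), where chance alone flags about 5%. The measure, held against the 95% critical value of Dixon, is the gap of the extreme library to its nearest neighbour divided by the whole range of its group in log2 CPM. In control livers it was 0.9169 for Keap1 and 0.8866 for Gss in female 2 of CT8, the library rich in ribosomal RNA. Female 2 of CT36 in controls gave 0.9201 for Srxn1, with 26.1 CPM, and 0.8346 for Txnrd1, with 123 CPM. The other control libraries were female 2 of CT44 for Keap1 (0.9258), male 2 of CT32 for Gclc (0.8515) and female 2 of CT16 for G6pdx (0.8535). In fasted livers the measure was 0.8417 for Keap1 in male 1 of CT24, 0.9018 for Nqo1 in female 2 of CT40, 0.8466 for Gsr in male 2 of CT44 and 0.9323 for G6pdx in female 1 of CT40. The library of control CT12 female 1, which had the highest G6pdx level of all, was not far enough from the rest of its group.

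The fasting effect differed between the sexes, by the interaction term, for 5 genes. On the log2 scale the effect in females minus that in males was -0.728 for Nqo1, -0.766 for G6pdx, -0.429 for Gclc, -0.31 for Gclm and 0.346 for Gss. The effect at CT36 to CT44 minus that at CT12 to CT20 differed, by the same kind of contrast, by 1.116 for Nqo1, 1.044 for Srxn1, 0.595 for Gsr, 0.235 for Txnrd1 and 0.174 for Keap1.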

How the results depend on the processing

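With a change of at least 1.5 times required, 1 gene was higher (Srxn1) and 1 lower (G6pdx) in the mean, and in males alone 1 was lower. At an adjusted p under 0.01, 9 pairs of gene and time were lower, 3 genes differed between sexes and 1 rhythm differed, as 1 did without the linear change over time. Without control CT12 female 1, chosen after seeing the data, 3 genes differed between the sexes. With 10 counts in every library, 1 gene passed for exon usage. The Gclc to Gclm ratio was -0.12 and the Nfe2l2 to Keap1 ratio -0.159 (adjusted p = 0.0659) in males alone.

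Leaving out a replicate gave 3 to 4 genes higher and 4 lower in the mean, 11 to 19 pairs higher and 6 to 16 lower, 1 to 6 sex differences of the effect, 3 to 6 in controls, 3 to 5 late changes, 4 to 5 control rhythms, 0 to 2 rhythm differences and 2 to 3 exon calls. It moved the ratios to -0.22 to -0.133 (Gclc to Gclm) and -0.242 to -0.133 (Nfe2l2 to Keap1). Signs turned only for values that were not called, apart from Nqo1 in females alone (-0.143): Keap1 in the mean without female replicate 2 (0.003, from -0.049 without other replicates) and in males alone (0.043), and the rhythm differences of Gsr without female replicate 1 (-0.038, up to 0.128) and Gclm without male replicate 2 (0.025, down to -0.069). With the replicate block, 3 genes differed between the sexes in controls (Nqo1, G6pdx and Gsr), and Keap1 late in the fast was no longer called (adjusted p = 0.0504). Without control CT8 female 2, Nfe2l2 was called between the sexes in controls (0.168, adjusted p = 0.0322). The causes were not tested.

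Over values of single genes under all alternatives, 877 kept direction and side of the threshold, 78 lost a call, 20 gained one and 5 turned sign. The called pairs gave 532 values, 0 of opposite sign and 86 no longer called.

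Over all genes, counts moved by more than 1.5 times as follows. At CT8 the count was 282 and 0 to 2123 elsewhere, with 0 for the 8 libraries alone or without male replicate 1, 1 without male replicate 2, 4 with limma-voom, 11 without control CT8 female 2, 32 without female replicate 2, 556 with DESeq2, 853 without a filter and 2123 without female replicate 1. At CT12 it was 340, and 5 and 30 without male replicates 2 and 1, 120 without control CT12 female 1, 213 and 545 without female replicates 2 and 1, 646 with DESeq2 and 1158 without a filter. Without male replicate 1 and 2 in turn, it was 2112 and 2465 of 4955 at CT16, 4789 and 4784 of 7757 at CT20, 2001 and 2832 of 5099 at CT24, 1807 and 1953 of 4448 at CT28, 1434 and 1198 of 3751 at CT32, 2625 and 2546 of 5672 at CT36, 238 and 360 of 2621 for the sex difference and 1738 and 1449 of 4483 for late against early. It was 5072 of 8459 at CT40 without male replicate 1, 5113 with its 8 libraries alone, 4545 of 8355 at CT44 and 2635 of 4858 for rhythm differences without male replicate 2, 4692 and 5104 of 8417 for control rhythms in females and males alone, and 950, 1103 and 1150 of 1986 for exon usage with 10 counts in every library and without female replicate 1 and male replicate 2.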
